A study of Homo sapiens with 8 samples.

Results

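Cells whose transcripts came to an unusual extent from the mitochondrial genome were examined among HMLE cells, an immortalised line of human mammary epithelial cells. A cell barcode was taken as a member when it had at least 1000 genes and when the 13 genes whose symbols begin with MT- held 6 to 15% of its gene UMIs (unique molecular identifiers, each standing for 1 captured transcript). There were 862 such cells among the 22857 cell barcodes with at least 1000 genes (3.77%). They were set against 15193 reference cells with at least 1000 genes and a mitochondrial share of 1 to 3% (66.5%), and 6802 cells fell in neither group. Members were thus chosen by measured values, the number of genes and the mitochondrial share, and the name of the population restates that choice.

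The series asked which states HMLE cells pass through in the epithelial-to-mesenchymal transition driven by TGF-β, and used the G-quadruplex ligand pyridostatin as a probe. Samples labelled with 12 short barcoded oligonucleotides (SBO01 to SBO12) were pooled and run as 4 5' mRNA libraries, and each library has a matching oligonucleotide library. Members and reference cells come from the same 4 libraries, from the same line, and from cultures whose TGF-β or pyridostatin exposure the labels do not tie to a barcode, so each group can mix cultures of different exposure and no treatment is compared. The first pool (SBO01 to SBO06) was loaded as libraries 1 and 2 and the second (SBO07 to SBO12) as libraries 3 and 4, so the p-values below measure the spread between loads and pools, not between replicate cultures.

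The mitochondrial genome encodes 13 proteins of the respiratory chain and ATP synthase, and their mRNAs are transcribed and translated inside the organelle, behind membranes separate from the cytosol. Most other subunits of those complexes, and all proteins of the mitochondrial ribosome, are encoded in the nucleus and imported. A share of mitochondrial transcripts is widely used in single-cell work as a quality measure, because a cell that has lost cytosolic RNA shows a higher share, and it is also known to vary between cell types with their respiratory activity. Nuclear-retained long non-coding RNAs, such as NEAT1 of the paraspeckles and MALAT1 of the nuclear speckles, sit in a compartment distinct from both.

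The 3 transcripts given as markers of this population are non-coding RNAs of the nucleus. MIR222HG (ENSG00000270069) is the host transcript of miR-221 and miR-222 and lies on the minus strand at chrX:45745211-45770274, in the GRCh38 coordinates of GENCODE 29. FTX (ENSG00000230590), a transcript of the X-inactivation centre that hosts several microRNAs, lies at chrX:73946555-74293574 on the same strand. NEAT1 (ENSG00000245532) lies at chr11:65422774-65445540 on the plus strand. The mature microRNAs of the MIR222HG locus are shown because they identify what this host carries, taken from RefSeq for GRCh38, with the seed (bases 2 to 8) in capitals and at chrX:45746180-45746202 and chrX:45747036-45747056 on the minus strand.
hsa-miR-221-3p: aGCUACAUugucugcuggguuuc
hsa-miR-222-3p: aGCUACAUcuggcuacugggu
Both carry the seed GCUACAU. The counts below measure the host transcript with its poly(A) tail and not these short RNAs, whose levels were not measured.

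Members were distinguished by few nuclear transcripts more than by many mitochondrial ones. The median count of nuclear-gene UMIs per member was 4219, 5280, 6831.5 and 8334 in libraries 1 to 4, against 22470, 27692, 30252 and 38561 in reference cells. The reference medians were therefore 5.33, 5.25, 4.43 and 4.63 times those of members, and no library overlapped between the groups. Mitochondrial UMIs per cell had medians of 501, 608, 804 and 908.5 in members and 376, 449, 542 and 675 in reference cells. Averaged over cells, members held 766 ± 193 mitochondrial and 7163 ± 1907 nuclear UMIs (SD over 4 libraries), and reference cells 534 ± 129 and 30452 ± 6311. The rule used both totals through the share, so these values describe the members and carry no test.

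**Figure D1:**
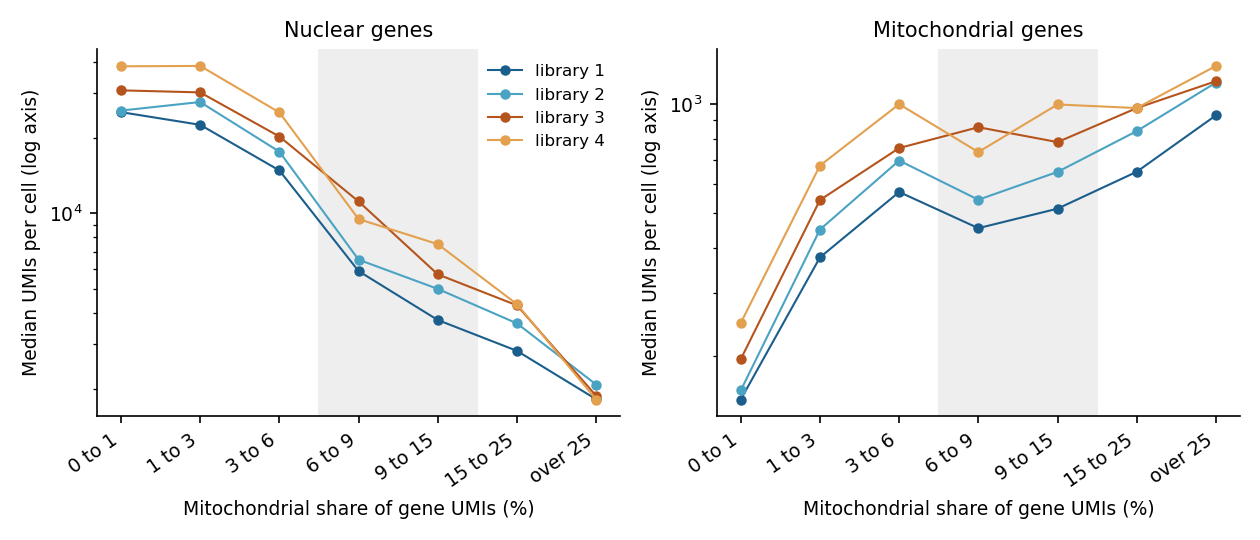
Median UMIs per cell (log axis) of nuclear genes (left) and of the 13 mitochondrial genes (right) by the mitochondrial share of a cell's gene UMIs, for cells with at least 1000 genes; each line is 1 library and the grey band covers the members. The mean of the 4 medians is 29744 nuclear UMIs at 1 to 3%, 8246 at 6 to 9% and 5490.3 at 9 to 15%, and 511, 649 and 736 mitochondrial UMIs in the same bins.

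The rule divides a continuous range. Just below it, 162 cells at 5 to 6% had a median of 12575 nuclear UMIs, and just inside it, 103 cells at 6 to 7% had 8975. At the upper bound, 79 cells at 14 to 15% had 4497 nuclear UMIs and 83 cells at 15 to 16% had 3828. Median mitochondrial UMIs across these 4 bins were 708, 609, 763 and 703. Neither bound fell at a gap in these values.

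Fewer genes were detected per member, with medians of 2476, 2994, 3327 and 3663 genes in libraries 1 to 4 against 5248, 5855.5, 5872 and 6470 in reference cells. At equal depth the order turned. Thinned to 3000 nuclear UMIs per cell, members had medians of 1932, 1982, 1807 and 1878 genes, and 1000 reference cells drawn per library had 1567, 1587, 1551 and 1542. The 129 members below 3000 nuclear UMIs (70, 38, 14 and 7 per library) were left out of the thinned values. At the same number of UMIs, members thus spread them over more genes in all 4 libraries.

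The make-up of the mitochondrial UMIs differed little between the groups. MT-CO1, the catalytic subunit of cytochrome c oxidase, held 31.5, 31.7, 29.3 and 28.0% of them in members of libraries 1 to 4 and 30.3, 30.5, 28.1 and 27.3% in reference cells. MT-CO2, another subunit of that complex, held 22.1% ± 0.9 (SD, n = 4) and 22.2% ± 1.48. MT-ND6, a complex I subunit and the 1 protein encoded on the light strand of the mitochondrial genome, had the largest relative excess, with 0.952, 0.945, 0.886 and 0.710% in members and 0.635, 0.757, 0.502 and 0.435% in reference cells, a ratio of 1.5. MT-ATP8, a small ATP synthase subunit, followed with 1.87% against 1.37%. At the other end MT-ND2, also of complex I, held 2.57% in members and 3.32% in reference cells, and its share was lower in all 4 libraries, as were those of MT-ND4, MT-CO3 and MT-CYB. In UMIs per cell all 13 genes were above the reference mean, from 1.12 times for MT-ND2 to 2.18 times for MT-ND6. These genes are the ones the rule summed, so no test was made of them.

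Levels of nuclear genes are given in CPM, the UMIs of a gene per 1000000 UMIs of nuclear genes, summed over all members, or all reference cells, of a library. Differences are log2 fold changes from edgeR's quasi-likelihood test on these 8 sums, with the library as a block, TMM composition factors and Benjamini-Hochberg adjustment at 0.05. A gene is called higher or lower only where it passed that test, and every value given beside such a call is the log2 fold change, members over reference cells, with its SE after ±. Without composition factors log2 fold changes move up by 0.71 (median over the tested genes), a fold of 1.64, so that a gene at an unchanged CPM has a TMM value near -0.71, and a value between that and 0 turns positive without the factors. Mean UMIs per cell, with no scaling, are a further scale, and on it most nuclear genes were below the reference, as their total was.

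Of 16459 nuclear genes tested, 10551 (64.1%) differed, of which 5351 (32.5%) were higher and 5200 (31.6%) lower in members. The filter on low counts could be passed through the far larger reference sums alone. Genes with few or no UMIs in members are thus among those tested, and these counts do not set them apart. Of those called, 9782 moved the same way in all 4 libraries, and 2880 were higher and 2562 lower by at least 1 on the log2 scale. Without composition factors 11341 genes (68.9%) differed, 9046 (55.0%) higher and 2295 (13.9%) lower. The CPM of the groups did not overlap for 9918 genes (60.3%). In UMIs per cell, 1750 genes (10.6%) were above the reference in members and the median ratio was 0.388. Against so wide a background the share of a list that passed says little, and the lists below are described by the size and direction of their differences.

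MIR222HG stood at 168, 179.7, 124 and 95 CPM in members of libraries 1 to 4 and at 10.6, 10.0, 10.4 and 9.91 CPM in reference cells. NEAT1, the scaffold RNA of paraspeckles, stood at 1938, 1992, 1688 and 1536 CPM against 180.3, 185, 164 and 160.4 CPM. FTX stood at 175, 174, 99.3 and 127 CPM against 14.8, 14.8, 13.9 and 12.9 CPM. In each of the 3, the lowest member sum was several times the highest reference sum, and in members libraries 1 and 2 were above libraries 3 and 4. The log2 fold changes were 3.07 for MIR222HG, 2.66 for NEAT1 and 2.63 for FTX, given with no test because the 3 were chosen for this difference. They were also among the genes with more UMIs per cell in members, 0.963 against 0.310 for MIR222HG, 12.5 against 5.20 for NEAT1 and 0.985 against 0.426 for FTX.

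**Figure D2:**
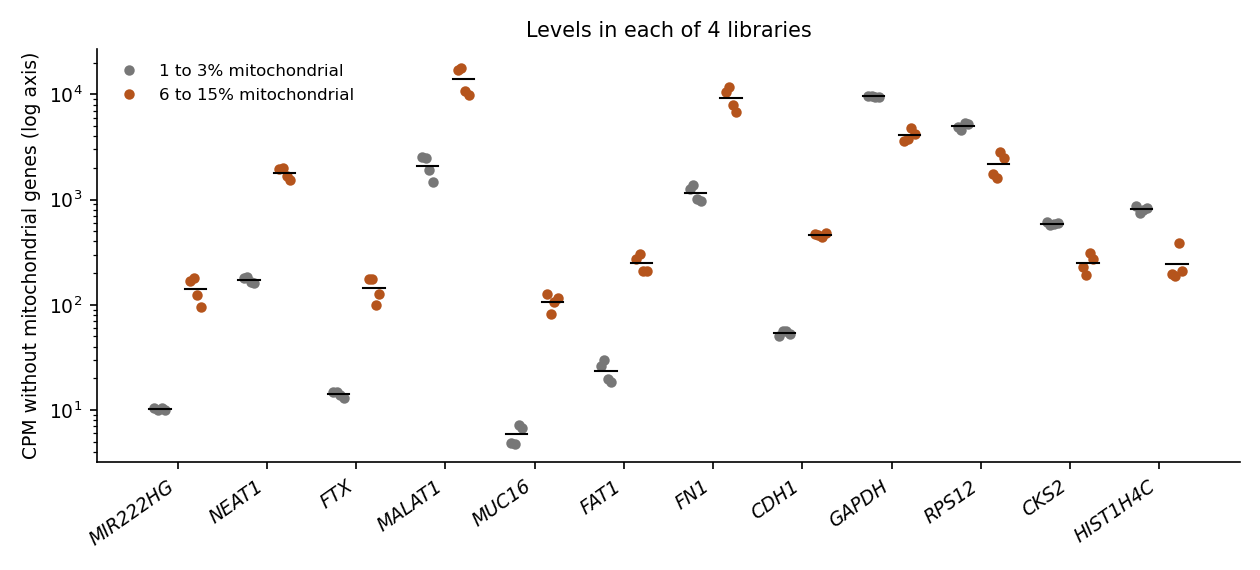
CPM without mitochondrial genes (log axis) of 12 genes in members (orange) and reference cells (grey); each point is 1 of 4 libraries and the bar is their mean. The 8 genes from MIR222HG to CDH1 are higher in members in every library, and GAPDH, RPS12, CKS2 and HIST1H4C are lower in every library.

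Long non-coding RNAs of the nucleus were mostly higher. Of 18 on the list, all were tested, 15 were higher, 1 was lower and 2 did not pass, with a median log2 fold change of 1.68 against 0.03 over all tested genes. The 15 include the markers NEAT1 and FTX, which were chosen for this difference and add no support. MALAT1, which is retained in nuclear speckles, stood at 17143, 17814, 10694 and 9896 CPM in members and 2519, 2481, 1911 and 1477 CPM in reference cells, higher by 2.00 ± 0.14 (edgeR adjusted p 3.8e-18). Its lowest member sum was above its highest reference sum, and in UMIs per cell it averaged 93.9 against 61.7. KCNQ1OT1, the antisense transcript of an imprinted locus, was higher by 2.42, SNHG14 by 2.50 and LINC-PINT, a p53-responsive transcript, by 2.77. JPX, a neighbour of FTX in the X-inactivation centre, was higher by 0.63. OIP5-AS1, an antisense RNA on the list although it is largely cytoplasmic, did not pass (0.13, edgeR adjusted p 0.2). Where these RNAs lay in the cells was not measured. The 1 lower transcript was HOTAIRM1 at -1.20. MALAT1 with the rest of the list, NEAT1 and FTX included, summed to 16948 ± 4649 CPM in members and 2602 ± 522 CPM in reference cells (SD, n = 4).

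Over all 2549 tested long non-coding genes, 31.9% were higher and 11.2% lower, beside 32.6% higher and 35.8% lower of the 13698 protein-coding genes. More UMIs per cell in members were counted for 24.6% of the long non-coding and 7.76% of the protein-coding genes. They held 3.17% ± 0.643 of nuclear UMIs in members and 1.07% ± 0.0567 in reference cells (SD, n = 4).

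Host transcripts of microRNAs, MIR222HG and FTX among them, were mostly higher. Of 20 tested, 14 were higher, those markers chosen for this difference included, and 6 did not pass, and the median was 1.05. MIR34AHG, host of the p53-induced miR-34a, had the largest value on the list at 3.49, MIR29B2CHG was higher by 2.98 and MIR17HG, host of the miR-17 to miR-92a cluster, by 2.03. MIR31HG stood at 181, 186, 89.1 and 114 CPM against 20.8, 23.1, 18.0 and 17.4 CPM, higher by 2.12 ± 0.10 (edgeR adjusted p 4.2e-24). MIR205HG, an abundant basal epithelial host transcript, was higher by 0.23 while its UMIs per cell were 0.444 times those of reference cells, and it did not pass without library 1 (0.11) or by DESeq2 (0.22). DLEU2, which hosts miR-15a and miR-16-1, was higher by 0.34 over the 4 libraries, with values above 0 in libraries 1 and 2 and below 0 in 3 and 4 on the same scale, and it did not pass at matched depth (0.20, edgeR adjusted p 0.35).

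Most listed host transcripts of small nucleolar RNAs went the other way. Many of these RNAs are spliced, exported and degraded in the cytoplasm. Of 18 tested, 14 were lower, 1 was higher and 3 did not pass, with a median of -0.73. SNHG29 stood at 256, 313, 337 and 325 CPM in members and 555, 519, 584 and 558 CPM in reference cells, lower at -1.56 ± 0.10 (edgeR adjusted p 3.2e-19), with no overlap between the groups. ZFAS1 had -0.96, SNHG5 -1.47 and GAS5 -0.66, and SNHG17 was the 1 higher member at 0.44. SNHG14, by its symbol also such a host, is not among the 18. It was counted above with the nuclear long non-coding RNAs, where it was higher. Without composition factors 5 of the 18 were higher and 6 lower.

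Among 20 genes of nuclear speckles and splicing, 15 were higher and 3 lower (SRSF5, SRRM1 and TRA2A, at -0.33, -0.27 and -0.24), with a median of 0.50. Without composition factors all 20 were higher, and against depth-matched reference cells 13 were higher and the other 7 did not pass. SON, a core speckle protein, stood at 742, 659, 656 and 686 CPM against 194, 189.8, 191 and 179 CPM and was higher by 1.16 ± 0.09 (edgeR adjusted p 1.9e-16). OGT, whose mRNA is regulated by a retained intron, had the largest value at 2.13, followed by the kinase CLK4 at 1.36. OGT is on the list although it encodes a glycosyltransferase and not a speckle or splicing protein. SRRM2 was higher by 0.48 and RBM39 by 0.66, and DDX5 did not pass at 0.11 (edgeR adjusted p 0.28).

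The largest rises outside the markers, with a mean level of 20 CPM or more required, included other non-coding transcripts and a few very long coding ones. MUC16, a giant cell-surface mucin, stood at 126, 82.1, 106 and 115 CPM in members and 4.85, 4.80, 7.14 and 6.70 CPM in reference cells. Its difference of 3.50 ± 0.11 (edgeR adjusted p 1.3e-29) was the largest by the naming rule, and its UMIs per cell were 0.769 against 0.183. FAT1, a giant protocadherin, stood at 271, 305, 208 and 211 CPM against 25.9, 29.7, 19.8 and 18.6 CPM, higher by 2.70 ± 0.08 (edgeR adjusted p 1.3e-30). Both genes had every member sum above every reference sum.

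Of the non-coding transcripts, LINC-PINT and LINC02595 were higher by 2.77 and 2.74, HELLPAR by 2.72, AC016831.1 by 2.84 and AL158152.1 by 2.63. CCDC144A was higher by 2.80, and reads of this gene can be divided with near-identical copies, so its value is uncertain. MTRNR2L12, a nuclear copy of mitochondrial ribosomal RNA sequence, was higher by 2.43 with 2495 ± 420.4 CPM against 281 ± 29.3 CPM (SD, n = 4); mitochondrial ribosomal RNA can be counted under it, so its value is uncertain too.

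Abundant mRNAs of the cytosol were lower. Of 24 on the list, 24 were lower, with a median of -1.52 and a range from -1.94 to -0.88. GAPDH, a glycolytic enzyme, stood at 3627, 3738, 4785 and 4175 CPM in members and 9679, 9733, 9384 and 9438 CPM in reference cells, lower at -1.94 ± 0.14 (edgeR adjusted p 4.2e-17). Its groups did not overlap, and in UMIs per cell it averaged 29.8 against 291. ACTB, cytoskeletal actin, had 5902 ± 439 CPM against 10441 ± 222 CPM (SD, n = 4), lower at -1.53.

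The mRNAs of cytosolic ribosomal proteins were lower almost without exception, 83 of 84 tested, with a median of -1.61. Together they held 103409 ± 19732 CPM in members and 193443 ± 7282 CPM in reference cells (SD, n = 4), or 762 against 5912 UMIs per cell. RPS12, a protein of the small subunit, stood at 1769.7, 1587, 2822 and 2466 CPM against 4874, 4540.0, 5405 and 5253 CPM, lower at -1.96 ± 0.13 (edgeR adjusted p 3.3e-18). RPS15A was lower at -1.94, RPLP1 at -1.77 and RPL41 at -1.63. The 1 higher member was RPL3L, a low-level paralogue of RPL3 best known from muscle, at 2.06 with 2.04 against 0.280 CPM. Processed copies of ribosomal protein genes are many, so single values on this list can share reads with them.

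The nuclear genes that serve mitochondria did not follow the mitochondrial transcripts. Of 76 nuclear-encoded subunits of the respiratory complexes, 74 were lower, with a median of -1.45, and the 2 that did not pass were SDHA (-0.09) and NDUFS1 (0.19). COX4I1 stood at 577, 518, 675 and 568 CPM in members and 968, 957, 969 and 977 CPM in reference cells, lower at -1.44 ± 0.10 (edgeR adjusted p 2.2e-17). ATP5F1E, an ATP synthase subunit, was lower at -1.69. COX6A1 was lower at -0.65 on the TMM scale, with CPM values that overlapped between the groups (1023 ± 152 against 976 ± 10.2), and without composition factors it did not pass. Of 78 mitochondrial ribosomal proteins, 77 were lower, with a median of -1.39, and MRPL30 alone did not pass. Protein-coding genes at large with a longest annotated transcript under 1 kb also had a median of -1.45, and 95.5% of them were lower. Neither list was tested against genes of its own length.

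Of 21 genes of mitochondrial import and chaperoning, 17 were lower and 4 did not pass, with a median of -1.30. TOMM22, a receptor of the outer membrane translocase, stood at 86.6, 89.2, 146 and 105 CPM against 229.5, 220.5, 250.2 and 240.1 CPM, lower at -1.87 ± 0.10 (edgeR adjusted p 2.2e-21). TOMM5 was lower at -1.68. At matched depth they stood at -1.19 and -1.04. HSPD1, the matrix chaperonin, was lower at -0.69 on the TMM scale and had 1187 ± 123 CPM against 1167 ± 101 CPM, and it did not pass without composition factors (0.02).

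Genes that maintain and express mitochondrial DNA divided, with 10 higher, 9 lower and 7 not past the test among 26, and a median of 0.07. Over all tested genes 32.5% were higher and 31.6% lower, with a median of 0.03, so this division is near the background. At matched depth 9 were higher and 4 lower of 25 (median 0.33), beside 29.8% and 28.8% of all genes then tested. LRPPRC, which stabilises mitochondrial mRNAs, stood at 247, 256, 217 and 234 CPM in members and 74.9, 82.5, 78.4 and 71.9 CPM in reference cells, higher by 0.93 ± 0.08 (edgeR adjusted p 2.1e-14). Its partner SLIRP went the other way, at 153, 122, 265 and 215 CPM against 335, 292, 353 and 366 CPM, lower at -1.59 ± 0.11 (edgeR adjusted p 2.2e-18). SSBP1, the single-strand binding protein of mitochondrial DNA, was lower at -1.47, and the polymerase subunits POLG and POLG2 were higher by 0.80 and 0.96. TFAM, which packages mitochondrial DNA, had 175 ± 13.8 CPM against 171 ± 6.72 CPM, a TMM value of -0.68 and 0.03 without composition factors, where it did not pass.

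Glycolysis genes were mostly lower, 13 of 20 against 3 higher, with a median of -1.09. TPI1 was lower at -1.62 and PKM, pyruvate kinase, at -1.19. The 3 higher genes were the glucose transporter SLC2A1 (0.32), the hexokinase HK2 (0.81) and PDK1 (1.83), which encodes a kinase that restrains pyruvate entry into mitochondria.

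**Figure D3:**
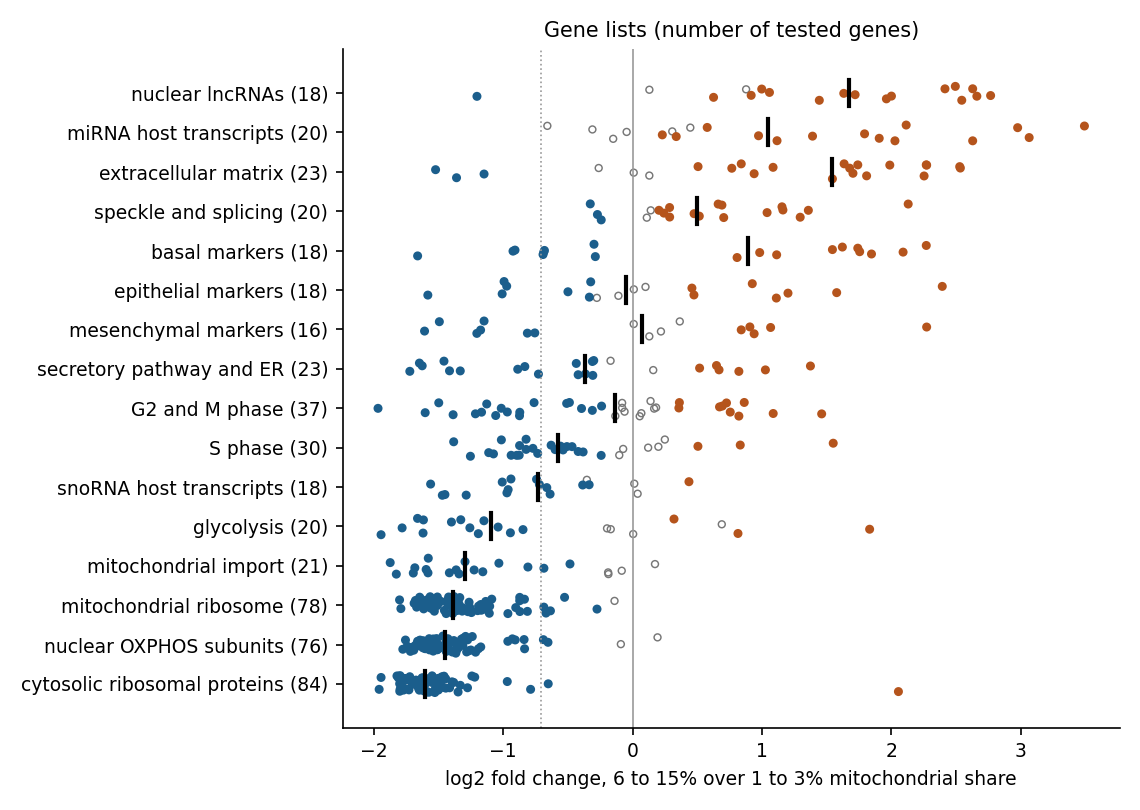
log2 fold change of members over reference cells for each tested gene of 16 lists, with the number tested in brackets; filled points passed the test (orange higher, blue lower), open points did not, thick bars are list medians, and the dotted line marks a gene with no difference in CPM (-0.71). Nuclear long non-coding RNAs (median 1.68) and extracellular matrix genes (1.55) sit furthest right, and cytosolic ribosomal proteins (-1.61) furthest left.

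Extracellular matrix genes, the scaffold that cells secrete, were mostly higher. Of 23 tested, 17 were higher and 3 lower, with a median of 1.55. The lower genes were DCN, BGN and POSTN, at -1.52, -1.36 and -1.15. DCN rested on few UMIs, and BGN had no UMI in members of libraries 3 and 4. Fibronectin, FN1, a matrix glycoprotein that is also a mesenchymal marker, stood at 10557, 11770.0, 7924 and 6769 CPM in members and 1264, 1370.3, 1015 and 973 CPM in reference cells. Its log2 fold change was 2.27 ± 0.13 (edgeR adjusted p 1.1e-20), with all member sums above all reference sums, and it averaged 63.4 UMIs per cell against 34.5. THBS1, thrombospondin, stood at 2140.3, 2105, 1922 and 2449 CPM against 325, 401, 317 and 290.4 CPM, higher by 1.99 ± 0.11 (edgeR adjusted p 2.6e-21). SPARC did not pass at 0.01 (edgeR adjusted p 0.94). The list summed to 15941 ± 2889 CPM against 2646 ± 490.3 CPM (SD, n = 4), and to 111 against 79.0 UMIs per cell. Without FN1 the other 22 tested genes summed to 47.2 against 44.4 UMIs per cell, and 11 of the 22 had more UMIs per cell in members.

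Whole gene families chosen after these values were seen are given as a description. Of 10 laminin chains tested, 9 were higher. LAMA3, the alpha chain of laminin-332 in the epithelial basement membrane, was higher by 2.27 with 799.5 ± 88.0 CPM against 101 ± 3.96 CPM (SD, n = 4). Of 26 collagen chains, 18 were higher and 8 did not pass, among them COL12A1 at 2.53 and COL4A1 at 2.25. Of 20 integrin subunits, 15 were higher and ITGAE alone was lower (-1.78). Proteasome subunits, by contrast, were lower in 37 of 37, with a median of -1.20, and S100 proteins in 13 of 15.

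Genes of the endoplasmic reticulum and secretory pathway divided, with 6 of 23 higher, 15 lower and a median of -0.36. The 6 were the lumenal chaperones and folding enzymes HSPA5 (1.03), HSP90B1 (0.67), PDIA3 (0.82) and PDIA4 (0.52), the lectin chaperone CANX (1.38) and the translocon channel SEC61A1 (0.65). HSPA5 stood at 2218, 2089, 2676 and 2666 CPM in members and 717, 763, 707 and 695 CPM in reference cells (SE of the difference 0.11, edgeR adjusted p 9.0e-12). The small translocon subunits SEC61B and SEC61G were lower at -1.65 and -1.72. CALR, a lumenal chaperone, was lower at -0.31 on the TMM scale and higher by 0.40 without composition factors, and at matched depth it did not pass (-0.08, edgeR adjusted p 0.62).

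Epithelial and mesenchymal markers did not move in a single direction. Of 18 epithelial markers 7 were higher and 7 lower (median -0.05), and of 16 mesenchymal markers 5 were higher and 7 lower (median 0.07). At matched depth these counts were 10 and 2 of 17 (median 0.54) and 1 and 6 of 12 (median -0.60). CDH1, E-cadherin, named after its value was seen, stood at 471, 462, 441 and 484 CPM in members and 50.7, 56.4, 56.7 and 52.5 CPM in reference cells, higher by 2.39 ± 0.08 (edgeR adjusted p 2.1e-28), and DSP, desmoplakin, was higher by 1.58. The 3 keratins of the same list were lower, among them KRT18 at -1.58 and KRT8 at -0.97. At matched depth KRT18 was at -0.67 and KRT8 did not pass (-0.19, edgeR adjusted p 0.16). VIM, the mesenchymal intermediate filament, stood at 512, 549, 136 and 135 CPM against 1118, 1107, 176 and 183 CPM, lower at -1.49 ± 0.11 (edgeR adjusted p 1.1e-16), and FN1, on the mesenchymal list as well, was higher, as given above. COL1A1, a fibrillar collagen, was higher by 0.94 (edgeR adjusted p 9.6e-08), but did not pass at matched depth (-0.60, edgeR adjusted p 0.076), without the library block (0.82) or in cells with 1 sample barcode (0.14). VIM was several times lower in libraries 3 and 4 than in 1 and 2 in both groups.

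The basal markers, which define the outer cells of the mammary duct and are abundant in this line, were higher in 10 of 18 and lower in 8 (median 0.90). The 10 were adhesion, basement membrane and junction genes with the transcription factor TP63 (0.81), and the 8 were 5 keratins with S100A2, MFAP5 and FGFBP1, the last 2 of which turned higher at matched depth (0.70 and 0.51, edgeR adjusted p 0.0082 and 0.014). At matched depth 13 were higher and 1 lower (median 1.42). COL17A1 and DST of the hemidesmosome were higher by 1.76 and 1.85. S100A2 was lower at -1.66, and at -0.51 at matched depth. KRT14 was lower at -0.91, which did not pass at matched depth (-0.03). KRT5 had 921 ± 167 CPM against 903 ± 132 CPM, a TMM value of -0.69, and it did not pass without composition factors (0.02) or at matched depth (0.21, edgeR adjusted p 0.18). Luminal markers were higher in 3 of 15 (ERBB3, MUC1 and KRT23, at 0.80, 0.86 and 1.03) and lower in 10, among them KRT19 at -0.99, which did not pass at matched depth (-0.10, edgeR adjusted p 0.47). At matched depth 3 luminal markers were higher and 6 lower of 12.

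Cell cycle genes divided. Of 37 genes of G2 and M phase 10 were higher and 18 lower (median -0.13), and of 30 S-phase genes 3 were higher (E2F8, POLA1 and BRIP1, at 0.51, 0.83 and 1.55) and 22 lower (median -0.58). At matched depth 16 and 10 of the G2 and M genes were higher and lower. Without composition factors the S-phase median turned to 0.13, with 13 higher and 6 lower. MKI67, the proliferation marker of the chromosome periphery, stood at 1241, 1312, 704 and 1085 CPM in members and 249.5, 268, 219.8 and 209 CPM in reference cells, higher by 1.46 ± 0.10 (edgeR adjusted p 4.6e-18). CENPF, a large kinetochore protein, was higher by 1.09. CKS2, a small partner of cyclin-dependent kinases expressed in the same phase, stood at 227, 192, 312 and 273 CPM against 609, 572, 589 and 600.0 CPM, lower at -1.97 ± 0.11 (edgeR adjusted p 1.9e-21), and UBE2C was lower at -1.50. Both falls were smaller at matched depth, at -1.05 and -0.46. Of the S-phase genes, TYMS was lower at -1.25 and PCNA at -1.01, and at matched depth they were at -0.68 and -0.59. Replication-dependent histone genes had 10 higher and 11 lower of 59, and at matched depth 0 higher and 13 lower of 24 (median -0.57). HIST1H4C had the largest fall by the naming rule, at 198, 186, 383 and 209.7 CPM against 869, 744, 797 and 840.2 CPM, lower at -2.50 ± 0.12 (edgeR adjusted p 1.2e-22). HIST1H1A was lower at -1.94, and at -0.72 at matched depth.

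The remaining large falls by the naming rule were in genes of several functions. MT1G, a metallothionein, stood at 27.7, 67.8, 5.94 and 6.15 CPM in members and 116, 118, 24.4 and 25.6 CPM in reference cells, lower at -2.14 ± 0.14 (edgeR adjusted p 2.6e-18), and its levels were several times higher in libraries 1 and 2 than in 3 and 4 in both groups. It was lower at -0.78 at matched depth (edgeR adjusted p 0.025), and it did not pass when sample barcode population was matched as well (-0.19, edgeR adjusted p 0.74). PPDPF was lower at -1.96, NTAN1, an amidase of the N-degron pathway, at -1.96, TMEM256 at -1.89 and DYRK4, a protein kinase, at -1.87 (-1.24 at matched depth).

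Lists of stress and death responses were lower or divided. Of 19 genes of the integrated stress response, which ATF4 drives, 12 were lower and 2 higher, SLC7A11 (1.87) and VLDLR (1.55), with a median of -0.72. DDIT4 was lower at -1.53 and PHGDH, of serine synthesis, at -1.20. Of 13 mitophagy genes 10 were lower and ULK1 alone was higher (1.12). GABARAP was lower at -1.84 and BNIP3, a receptor of mitophagy, at -1.72. Of 16 heat shock genes 12 were lower and 2 higher, HSPA4L (0.56) and HSPA5, and without composition factors 6 were higher and 3 lower. HSP90AB1 was lower at -0.47 on the TMM scale and higher by 0.23 without composition factors.

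Apoptosis genes divided, with 10 higher and 10 lower of 25, beside 32.5% higher and 31.6% lower over all tested genes. The lower ones included CYCS, cytochrome c, at -1.41 and the pore protein BAX at -1.20, which were at -0.85 and -0.69 at matched depth. The higher ones included APAF1, which binds released cytochrome c, at 0.93 and the survival factor MCL1 at 0.54. Of 20 p53 targets 9 were higher and 7 lower, and at matched depth 1 and 6 of 18. MDM2, which restrains p53, stood at 208, 211, 138 and 182 CPM against 34.5, 36.7, 29.3 and 25.7 CPM and was higher by 1.84 ± 0.09 (edgeR adjusted p 9.7e-24). SFN was lower at -1.38, and at -0.39 at matched depth. CDKN1A, the p21 inhibitor, was lower at -0.48 on the TMM scale and higher by 0.23 without composition factors.

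Of 20 immediate-early genes, the first to respond to a stimulus, 6 were higher and 12 lower, and without composition factors 11 and 1. JUN was lower at -0.45 on the TMM scale and higher by 0.26 without composition factors, and EGR1 was higher by 0.26, which did not pass at matched depth (0.03) or without library 1, 2 or 4 (0.22, 0.21 and 0.24). Of 26 interferon-stimulated genes 10 were higher and 12 lower, with the membrane protein IFITM3 at -1.17, the signal transducer STAT2 at 1.61 and the antiviral GTPase MX1 not past the test at 0.12 (edgeR adjusted p 0.24).

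The direction of these divided lists depended on the scaling. Without composition factors 18 interferon-stimulated genes were higher and 2 lower, 14 apoptosis genes were higher and 6 lower, and 13 p53 targets were higher and 2 lower. The same fit gave 18 and 3 for mitochondrial DNA expression, 14 and 6 for the endoplasmic reticulum, 13 and 4 for epithelial, 8 and 4 for mesenchymal, 12 and 3 for basal and 6 and 6 for luminal markers (luminal median 0.08), 24 and 10 for G2 and M phase and 33 and 3 for replication histones. It gave 6 and 6 for the integrated stress response, 5 and 6 for mitophagy and 7 and 11 for glycolysis. The nuclear long non-coding RNAs (17 and 1), the matrix genes (19 and 1), the cytosolic ribosomal proteins (1 and 81) and the OXPHOS subunits (2 and 70) were on the same side by both scalings.

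Markers of other cell types were scarce. Of 8 leukocyte markers 6 had no UMI in members, PTPRC and CD3E among them, and the list summed to 3.57 to 4.78 CPM in members and 2.66 to 3.26 CPM in reference cells across libraries. Of 7 endothelial markers 3 had no UMI in members (TEK, CLDN5 and EMCN), and the list summed to 3.46 to 5.47 CPM against 1.37 to 1.69 CPM, with KDR higher by 1.84 on few UMIs. Fibroblast markers, 8 in number with 2 at 0 in members, summed to 100.2 to 176 CPM in members and 81.3 to 176 CPM in reference cells, and no erythroid marker was high enough to be tested. The keratins and junction genes of the epithelial line were present in members at the levels given above.

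Differences followed transcript length. Over 10667 protein-coding genes averaging 5 CPM or more, those with a longest annotated transcript under 1 kb had a median log2 fold change of -1.45, and 95.5% of them were lower. The medians were -1.09 at 1 to 2 kb, -0.50 at 2 to 3 kb, 0.13 at 3 to 5 kb, 0.64 at 5 to 8 kb and 1.06 at 8 kb and over, where 83.0% of genes were higher. Spearman's rho between length and log2 fold change was 0.70 across these genes, which share the same 8 sums and are not independent, so it has no p. It was 0.69 with the reference matched on depth and 0.62 between the upper and lower ranges of members. No part of this order was tested against a cause.

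Differences also varied among genes of like length. Among genes of 5 to 8 kb, integrins, laminins and collagens (20 genes) had a median of 1.45 and solute carriers (28 genes) of 0.99, beside 0.64 over all 2035 genes of that length. At 3 to 5 kb the medians were 0.78 (10 genes), 0.47 (65 genes) and 0.13 (3201 genes). These families were chosen after their values were seen, and whether they differ from other genes of their length was not tested. Nor were the other lists above tested against genes of their length.

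**Figure D4:**
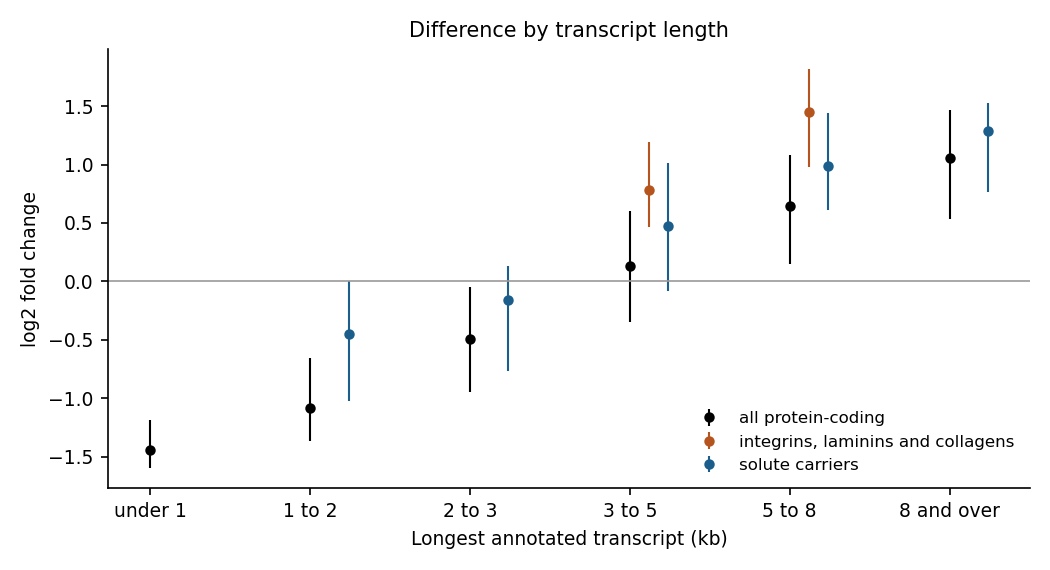
Median log2 fold change of members over reference cells by the longest annotated transcript (GENCODE 29), for all protein-coding genes averaging 5 CPM or more (black), integrins, laminins and collagens (orange) and solute carriers (blue); bars span the lower to the upper quartile and groups under 10 genes are left out, as is the orange group of 9 genes at 8 kb and over. The black medians run from -1.45 under 1 kb to 1.06 at 8 kb and over.

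Depth differs between the groups, so the main comparison was repeated against reference cells matched in nuclear UMIs. Within 10% of a member's nuclear UMIs, 456 of the 862 members found a partner in their library. These 456 were deeper than members as a whole, with medians of 6119, 7900, 8189 and 9626 nuclear UMIs against 4219, 5280, 6831.5 and 8334. Their median mitochondrial shares were lower, at 9.26, 9.41, 9.68 and 9.40% against 10.4, 10.3, 10.1 and 10.1%. Both groups of cells thus changed, and how far each change moved a value was not tested. Of 9704 genes then tested, 5684 (58.6%) differed, 2894 (29.8%) higher and 2790 (28.8%) lower. Matched on sample barcode population as well, 2730 of 5508 genes (49.6%) differed, 1403 (25.5%) higher and 1327 (24.1%) lower. NEAT1 had a log2 fold change of 2.37, MIR222HG of 3.09 and FTX of 2.55, all given with no test. MALAT1 was higher by 1.79 (edgeR adjusted p 2.9e-11), FN1 by 1.71 (edgeR adjusted p 8.3e-10) and CDH1 by 1.96 (edgeR adjusted p 1.0e-10), and GAPDH was lower at -1.45 (edgeR adjusted p 4.8e-10). The ribosomal protein list had 81 of 83 lower and a median of -1.12, and the OXPHOS list 73 of 76 lower and -0.99. MUC16 moved from 3.50 to 2.33 and MDM2 from 1.84 to 0.93, and both passed (edgeR adjusted p 2.0e-09 and 2.6e-05). Among the lower genes described above without their matched values, PKM moved from -1.19 to -0.76, SSBP1 from -1.47 to -0.93, SLIRP from -1.59 to -1.04, SEC61B from -1.65 to -1.07 and ITGAE from -1.78 to -1.18, each still past the test. COX6A1 (-0.16), HSPD1 (-0.16), HSP90AB1 (-0.06), TFAM (-0.10), SRSF5 (-0.18), SRRM1 (-0.02) and TRA2A (-0.0047) did not pass at matched depth, and neither did the higher genes SNHG17 (0.09) and ULK1 (0.74).

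Members also differed among themselves along the share. Between the 553 members at 9 to 15% and the 309 at 6 to 9%, 2503 of 9381 genes (26.7%) differed, 1017 (10.8%) higher and 1486 (15.8%) lower at the upper range. The genes named here as differing were picked from the 12 largest falls and 12 largest rises by the same level requirement. DHRS2 (-1.49), TUBA1A (-1.48) and S100P (-1.43) fell further than MMP9. TMEM131L (1.28), HELLPAR (1.27) and FAM193A (1.12) rose further than KLF7, NRG1 and COL12A1, which are given below. CXCL1, a chemokine, had the largest fall, at 8.97, 9.52, 32.1 and 21.5 CPM in libraries 1 to 4 against 61.8, 25.8, 100.2 and 14.8 CPM, lower at -1.62 (edgeR adjusted p 3.9e-05), and its level was higher at the upper range in library 4. MMP9, a matrix protease, stood at 80.7, 39.1, 81.3 and 64.6 CPM against 159.8, 229.9, 117 and 99.3 CPM, lower at -1.38 with no overlap (edgeR adjusted p 3.7e-06). GJA1, the gap junction protein connexin 43, had the largest rise, at 28.2, 48.6, 71.8 and 48.1 CPM against 16.6, 15, 18.5 and 14.8 CPM, higher by 1.40 (edgeR adjusted p 4.0e-05).

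Ribosomal protein mRNAs were lower in 81 of 83 (median -0.76), OXPHOS subunits in 67 of 76 (median -0.66) and nuclear long non-coding RNAs higher in 13 of 17 (median 0.61). Of 26 interferon-stimulated genes 15 were lower and 11 did not pass, RSAD2 being among the lower at -1.21. COL12A1 was higher by 1.01, KLF7, a transcription factor, by 1.08 and NRG1, an ErbB ligand, by 1.02, while FN1 did not pass at 0.32 (edgeR adjusted p 0.13). This count depends on the libraries and the model, with 1301 genes without library 1, 1639 without library 2, 1431 without the library block and 1003 by DESeq2.

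Cells that the rule leaves out, at 3 to 6%, were set against the same reference cells. Of 16447 genes 5298 (32.2%) differed, 2454 (14.9%) higher and 2844 (17.3%) lower, and without the library block 1906 did. The 2 comparisons share their reference sums, so their values are placed side by side only. MIR222HG had 1.10 at 3 to 6% and 3.07 at 6 to 15%, NEAT1 0.89 and 2.66, FN1 0.77 and 2.27, and GAPDH -0.38 and -1.94. The ribosomal protein list had a median of -0.20 at 3 to 6% and of -1.61 in members.

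Levels along the whole range of mitochondrial share show where members sit. NEAT1 averaged 148, 172 and 358 CPM in cells at 0 to 1, 1 to 3 and 3 to 6%, then 1399 and 2164 CPM in the lower and upper range of members, and 3486 and 4149.7 CPM at 15 to 25% and over 25%. MIR222HG ran over the same bins from 7.18 to 223 CPM and stood at 129.9 CPM in the last. FN1 was highest in the upper range of members, at 10623 CPM, and stood at 5188 CPM over 25%. GAPDH ran from 10391 CPM at 0 to 1% to 2445 CPM at 15 to 25%. These are means over 4 libraries and a description.

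In UMIs per cell the same bins separate the transcripts differently. NEAT1 averaged 5.20 UMIs per cell at 1 to 3%, 12.8 at 6 to 9%, 12.3 at 9 to 15%, 14.3 at 15 to 25% and 9.15 over 25%. Its highest value was thus beyond the members. GAPDH averaged 291, 47.4, 19.4, 10.1 and 6.60 in those bins. LAMA3 averaged 3.07, 6.51, 5.14, 4.60 and 1.21. The summed nuclear long non-coding RNAs and the summed matrix genes were above the 1 to 3% level throughout the members, and GAPDH, the ribosomal proteins and the OXPHOS subunits were below it from 3% upwards.

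**Figure D5:**
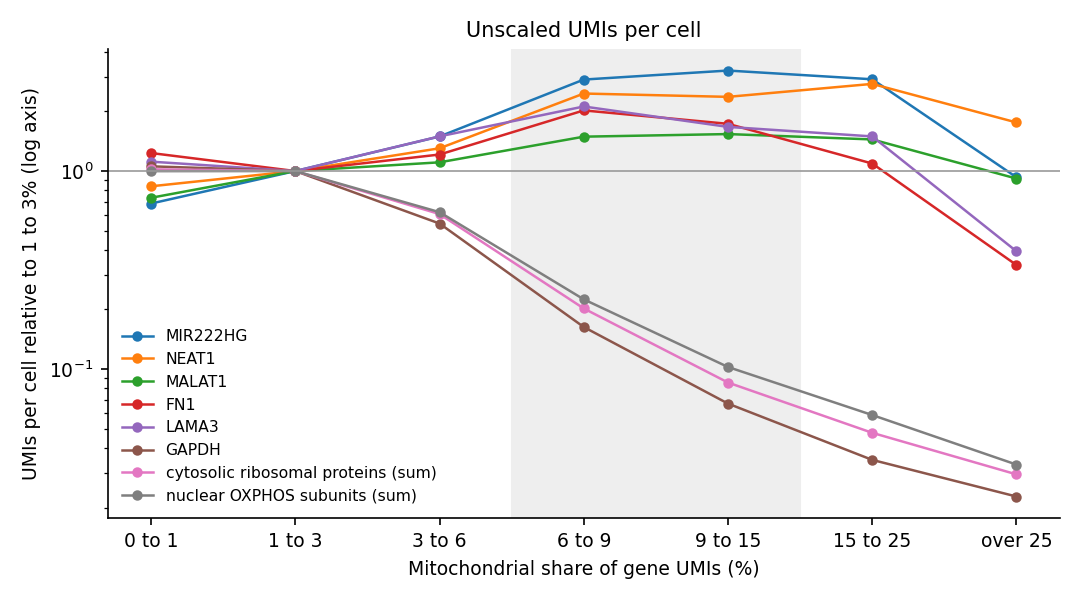
Mean UMIs per cell of 6 genes and 2 summed lists, relative to cells at 1 to 3% (log axis), by mitochondrial share, each point the mean of 4 libraries; the grey band covers the members. MIR222HG, NEAT1, MALAT1, FN1 and LAMA3 lie above 1 in the band, and GAPDH, the ribosomal proteins and the nuclear OXPHOS subunits lie below it.

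Members differed among themselves with depth. When the members of each library were divided at their median number of nuclear UMIs, NEAT1 stood at 2716 ± 664 CPM in the shallower cells and 1414 ± 319 CPM in the deeper ones, against 172 ± 12.1 CPM in reference cells (SD, n = 4). GAPDH stood at 2944 ± 254 and 4540.5 ± 793 CPM, against 9558 ± 173 CPM. FN1 stood at 11675 ± 1311 and 8262 ± 3037 CPM, against 1156 ± 192 CPM. For these 3 genes both sets of members lay on the same side of the reference cells.

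The share of cells that were members differed between libraries and pools. It was 3.72% (95% exact binomial interval 3.32 to 4.17), 5.05% (4.48 to 5.68), 2.61% (2.2 to 3.07) and 3.74% (3.19 to 4.35) in libraries 1 to 4, from 291, 269, 142 and 160 members. Loads of the same pool differed by about as much as the pools, which stood at 4.26% in the pool of SBO01 to SBO06 and 3.11% in that of SBO07 to SBO12. Intervals cover counting error only and overlap for libraries 1 and 4 alone. Of the members, 63 carried a cell barcode that also occurred in another library (11, 15, 13 and 24 per library). Without all cells of such barcodes 10183 genes differed in the main comparison.

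Sample barcodes were not used by the rule and were assigned in members and reference cells by the same procedure. By HTODemux 50.8% ± 3.76 of members and 53% ± 2.65 of reference cells carried 1 sample barcode (SD, n = 4). Barcodes with several, which can be more than 1 cell, were 22.3% ± 1.57 and 23.1% ± 2.39, and those with none 26.9% ± 4.34 and 23.9% ± 4.81. Cells with 1 were fewer among members in 4 of 4 libraries and cells with none more frequent in 4 of 4, but at a positive quantile of 0.95 the mean differences were -0.648 and 0.763 percentage points (exact paired permutation p = 0.875 and 0.75). The exact paired permutation test gave two-sided p = 0.125, 0.875 and 0.125 for the 3 classes, where 0.125 is the smallest that 4 pairs allow, and 0.208, 0.875 and 0.208 after Benjamini-Hochberg adjustment over 5 measures. The median number of sample barcode UMIs per cell was 442, 547, 298.5 and 344 in members and 643, 686, 260 and 283 in reference cells. Members thus had fewer in libraries 1 and 2 and more in libraries 3 and 4. Sample barcode UMIs per 1000 nuclear UMIs were higher in members in 4 of 4 libraries, at a mean of 67.8 against 17.3. That ratio divides by nuclear UMIs, which enter the rule through the share. It was 1 of the 5 measures of the adjustment but is given as a description with no test.

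Members came from all 12 sample barcodes. Their share ran from 2.17% of SBO09 cells (15 of 691; interval 1.22 to 3.56) to 6.05% of SBO06 cells (65 of 1074; 4.70 to 7.65) and 6.03% of SBO03 cells (53 of 879; 4.55 to 7.81), and the intervals of neighbours in that order overlapped. These sizes depend on the assignment: by the barcode with most UMIs, SBO08 held 2962 cells in place of 863 and SBO12 held 98, with 2 members, in place of 1227 with 39. Each barcode stands for 1 sample with no replicate culture, and the exposure of each is not known, so no comparison is made between them. Within each population by HTODemux, the CPM of members over that of its own reference cells was 7.98 to 20.6 for NEAT1, 7.87 to 33.8 for MIR222HG, 6.09 to 16.5 for FTX, 3.71 to 9.72 for FN1 and 5.21 to 11.5 for CDH1, above 1 in 12 of 12 for each. It was 0.267 to 0.562 for GAPDH and 0.283 to 0.756 for the summed ribosomal proteins, below 1 in 12 of 12. For VIM it was 0.371 to 3.21, above 1 in 2 of 12, and for KRT5 0.758 to 2.52, above 1 in 6 of 12. Some of these ratios rest on few member UMIs, such as 9 of MIR222HG and 9 of FTX in SBO10 and 6 of VIM in SBO09.

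The size of the difference between members and reference cells was itself compared between the pools. By the interaction term of edgeR, 105 of 16459 genes (0.638%) passed, 60 (0.365%) with a higher and 45 (0.273%) with a lower value in the second pool. MIR222HG was among them, with an interaction of -0.64 (log2, libraries 3 and 4 minus libraries 1 and 2; edgeR adjusted p 0.027), a smaller difference in the second pool. DLEU2 stood at 88.7, 98.8, 44.1 and 42.4 CPM in members of libraries 1 to 4 and 34.1, 33.5, 34.1 and 30.4 CPM in reference cells, an interaction of -1.02 (edgeR adjusted p 3.0e-04). On the TMM scale its log2 difference was 0.66 and 0.84 in libraries 1 and 2 and -0.28 and -0.26 in libraries 3 and 4. VIM and COL1A1 went the other way, at 0.68 and 1.26 (edgeR adjusted p 0.025 and 1.2e-04), and both genes were several times higher in reference cells of libraries 1 and 2. The count depends on single libraries, with 5 genes without library 2, 25 without library 1 and 768 without library 4.

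The 4 libraries held 139331790 to 179421284 gene UMIs in 5149 to 8792 cell barcodes. The summed nuclear UMIs behind each value were 1177910 to 1680966 in members and 99375769 to 122016483 in reference cells, so the precision of member values is the lower of the 2. Over all 26247 cell barcodes, 899 occurred in more than 1 library.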

How the data were processed

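Single-cell 5' gene counts of HMLE cells and matching sample barcode counts were analysed in 4 libraries each. Per the submitters' processing notes, the authors made the deposited counts with Cell Ranger 6.0.2 on hg38 (with bcl2fastq 2.20.0.422; Seurat 4.1.0 is also named); the annotation release is not given in the sources used here. The values are UMI counts per gene and cell barcode, not normalized.

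Cells were grouped by their own counts: members had at least 1000 genes and 6 to 15% of gene UMIs from the 13 MT- genes, reference cells 1 to 3%. No doublet caller was run; cells with 1 sample barcode by HTODemux (Seurat 5.3.0, positive quantile 0.99) served as an alternative. Counts were summed per library and group, MT- genes were removed, and the 8 sums were tested with edgeR 4.0.16 (quasi-likelihood, filterByExpr, TMM, library as a block, R 4.3.3) and Benjamini-Hochberg adjustment at 0.05. The library pairs the sums because members and reference cells share it. The sums held 1177910 to 1680966 nuclear UMIs in members and 99375769 to 122016483 in reference cells. Depth-matched reference cells were taken within 10% of a member's nuclear UMIs, without replacement.

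Genes named by rule were the 3 markers, the 12 largest rises and 12 largest falls past the test at 20 CPM or more with the same direction in 4 libraries, and the 4 most abundant members of each list. A few genes that the rule names are not reported here. Other named genes were chosen after their values were seen. The members and lists were chosen with earlier results of these data known. Alternatives were DESeq2 1.42.0, RLE factors, no composition factors, library sizes with MT- genes, no filter on low counts, no library block, leaving out each library, members at 6 to 10%, at least 500 or 2000 genes, and, added after seeing the data, cells whose barcode is in 1 library alone. Lengths and coordinates are from GENCODE 29, and microRNA sequences from RefSeq for GRCh38. Tests over samples used scipy 1.17.1.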

Additional observations from a re-analysis of the deposited data

Results flagged for a closer look

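In 6 of 196 sets of 4 library values that were checked, 1 library stood apart from the other 3 by more than Dixon's 95% critical value for 4 samples, and chance gives this in about 1 of 20 sets. HIST1H4C, a replication histone, was at 382.9 CPM in members of library 3, above the other 3 libraries. SSBP1 was at 358.3 CPM in members of library 3, also above the others. DYRK4 was at 12.5 CPM and BAX at 108.3 CPM in members of library 2, both below the others. In reference cells, ATP5F1E was at 805.9 CPM in library 2 and HSP90B1 at 741.1 CPM in library 4, each below the others. All 6 genes had the same direction of difference between members and reference cells in all 4 libraries.

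For 4 of the 89 named genes followed through every alternative, the difference between members and reference cells itself differed between the pools. The values are edgeR's interaction term (log2, libraries 3 and 4 minus libraries 1 and 2). Outside the 89, DLEU2 (-1.02, adjusted p 3.0e-04) and CXCL1 (1.60, adjusted p 3.3e-04) also passed. MIR222HG had -0.64 (adjusted p 0.027), a smaller rise in the second pool. SLIRP had 0.62 (adjusted p 0.033) and VIM 0.68 (adjusted p 0.025), smaller falls in the second pool. COL1A1 had 1.26 (adjusted p 1.2e-04), a larger rise there. Which cultures or loads these differences come with was not tested, since each pool holds its own 6 samples.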

How the results depend on the processing

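The comparison of members with reference cells kept a count within 1.5 times of 10551 genes under the scaling, filter, tool, block, cell and leave-one-out alternatives, from 8490.0 with members at 6 to 10% to 11341 without composition factors. Without the library as a replicate block it was 10193, and leaving out each library gave 9539 to 10551. Matching the reference on depth gave 5684 genes (2894 higher, 2790 lower) and on depth and sample barcode 2730 (1403 and 1327), with fewer genes tested, fewer cells and deeper members. The split moved with the scaling, to 9046 higher and 2295 lower without composition factors and 8363 and 2745 with library sizes that include MT- genes. Between the ranges of members the count was 1431 (475 higher, 956 lower) without the replicate block and 1003 (193 and 810) by DESeq2, and 1301 to 2498 (402 to 1003 higher, 899 to 1495 lower) leaving out each library. At 3 to 6% it was 1906 (1066 and 840) without the replicate block, 1633 were higher by DESeq2, and leaving out each library gave 1607 to 2279 higher. Between pools, leaving out each library gave 5 to 768. Shares of members had 2.95% in library 1 at 2000 genes, and 6.46, 8.89, 5.18 and 7.29% with no upper limit. SBO12 had 2.04% by the top barcode, and the difference in cells with 1 sample barcode was -0.648 percentage points at quantile 0.95.

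Of 89 of the named genes, followed through every alternative, 68 kept their side of the threshold and their direction under each. Among these, without composition factors COX6A1 (0.054), TFAM (0.031), HSPD1 (0.023), KRT5 (0.022), CDKN1A (0.23), HSP90AB1 (0.23), JUN (0.26) and CALR (0.40) turned positive, the last 4 also with MT- genes in the library size (0.11, 0.11, 0.13 and 0.28). Matched on depth and sample barcode, COX6A1 (0.18), TFAM (0.17), HSP90AB1 (0.050), JUN (0.21), CALR (0.18) and KRT8 (1.6e-04) turned positive and COL1A1 negative (-0.081). Matched on depth alone, KRT5 had 0.21 and COL1A1 -0.60. Outside the 89, KRT17 (0.016), IER2 (0.056) and IER3 (0.25), which the rule names too, also turned positive without composition factors, as did FGFBP1 (0.03), MFAP5 (0.41), SRRM1 (0.44), SRSF5 (0.38) and TRA2A (0.47). The causes were not tested. The depth of the members limits genes under about 20 CPM, which rest on few UMIs.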
